A study of Homo sapiens with 12 samples.

Results

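The sirtuins, SIRT1 to SIRT7, were examined in HK2, a human cell line established from the proximal tubule of the kidney. The 7 genes were taken by gene ID from the deposited table of read counts, which lists 58288 gene IDs, and 6 of the 7 were among the 13959 genes with enough reads to be tested. HK2 cells carried a short hairpin RNA (shRNA) in stable form, aimed either at FLCN, the gene for the tumour suppressor folliculin, or at no human gene (nontarget). Each kind was harvested after short-term culture, under 30 passages in the labels, or after long-term culture, over 120 passages in the labels, while the study's methods give a lower minimum. The 12 libraries thus form 4 groups of 3, nontarget and FLCN knockdown at either age. All cells grew in the same serum-containing medium, and no group lacked an shRNA. The lines were clones, and the labels do not say which clone gave each library, so the hairpin and the clone that carries it cannot be told apart. The replicates are labelled as biological, and nothing states that they came from separate clones, so the p-values measure the spread between these libraries.

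Sirtuins remove acetyl or other acyl groups from lysines, and they consume NAD+ with every reaction, which ties their activity to the cell's supply of NAD+. The family is divided by where its members work. SIRT1 is chiefly nuclear and acts on transcription factors and coactivators such as FOXO3 and PGC-1alpha. SIRT2 is mainly cytoplasmic and deacetylates tubulin, SIRT6 acts on chromatin, and SIRT7 is enriched in the nucleolus. SIRT3, SIRT4 and SIRT5 work in mitochondria, which are abundant in the proximal tubule. RNA levels say nothing about the amount or the activity of the enzymes.

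What the family shares in sequence is the start of its NAD+-binding fold, a glycine-alanine-glycine run. The stretches below show how far the 7 members differ at the site that defines them. Each is 30 bases of the coding strand, 5′ to 3′, from GENCODE release 29 transcripts on GRCh38, and the capitals mark the glycine-alanine-glycine codons.
SIRT1: GGAGCTGGGgtgtctgtttcatgtggaata
SIRT2: GGAGCTGGAatctccacatccgcaggcatc
SIRT3: GGGGCCGGCatcagcacacccagtggcatt
SIRT4: GGGGCAGGAatctccaccgaatcggggata
SIRT5: GGAGCTGGTgttagtgcagaaagtggtgtt
SIRT6: GGTGCCGGCatcagcactgcctctggcatc
SIRT7: GGCGCGGGAatcagcacggcagcgtctatc
The SIRT1 stretch crosses from exon 3 to exon 4 within chr10:67889115-67891422 on the plus strand. That of SIRT2 crosses from exon 5 to exon 6 within chr19:38889951-38890121 on the minus strand, and that of SIRT7 from exon 3 to exon 4 within chr17:81915670-81917632 on the minus strand. The others each lie in 1 exon: SIRT3 in exon 2 at chr11:233354-233383 on the minus strand, SIRT4 in exon 2 at chr12:120303745-120303774 on the plus strand, SIRT5 in exon 4 at chr6:13588387-13588416 on the plus strand and SIRT6 in exon 2 at chr19:4180793-4180822 on the minus strand. Position by position, SIRT5 had the same base as SIRT1 at 18 of the 30 places, SIRT2 at 17, SIRT4 at 16, SIRT6 at 15, SIRT3 at 14 and SIRT7 at 11.

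FLCN is known to hold back TFEB and TFE3, transcription factors that bind the E-box CACGTG, so the sirtuin promoters were searched for these letters, which read the same on both strands. The RefSeq windows run from 250 bases before to 50 bases after each gene start on GRCh38.p14. They exist for 6 of the 7 sirtuins, as 9 windows, with SIRT7 not among them. SIRT1 had the only window with CACGTG, and it had the letters at 2 positions, shown here in capitals on the plus strand.
SIRT1, 123 bases before the start, chr10:67884521-67884550: gcctccgcccgcCACGTGacccgtagtgtt
SIRT1, 44 bases before the start, chr10:67884600-67884629: gatggggcgggtCACGTGatggggtttaaa
The second match is flanked as TCACGTGA. CACGTG occurred in 7.26% of 35116 promoter windows, at 2 or more positions in 0.664%, and TCACGTGA, which contains it, in 0.98%. A longer pattern that contains TCACGTGA was searched too. It was found in 0 of the 9 sirtuin windows, and in 0.353% of the 35116 promoter windows. A match is a run of letters and not a measured binding site.

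The genes lie on 6 chromosomes, with SIRT2 and SIRT6 both on chromosome 19. On GRCh38 their spans are chr10:67884669-67918390 for SIRT1, chr19:38878555-38899862 for SIRT2, chr11:215458-236931 for SIRT3, chr12:120302316-120313249 for SIRT4, chr6:13574529-13615158 for SIRT5, chr19:4174109-4182604 for SIRT6 and chr17:81911939-81921323 for SIRT7. Whether reads were counted by strand is not stated, so reads in exon shared with a gene on the other strand cannot be assigned with certainty. SIRT3 shares 316 bases, 6.075% of its exon length, with PSMD13, a proteasome subunit gene on the opposite strand that had 15798 counts over the 12 libraries against 495 for SIRT3. SIRT5 shares 16.06% of its exon length with the antisense gene AL441883.1, which had 38 counts. SIRT7 shares 1.707% with MAFG on the same strand, SIRT2 shares 0.643% with NFKBIB and SIRT4 shares 0.982% with the snRNA gene RNU6-1088P, which had 0 counts. SIRT1 and SIRT6 shared no exon with another gene.

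Libraries held 5825779 to 8991051 counts. FLCN was lowered in both knockdown groups: short-term libraries had 12.7, 16.7 and 16.5 CPM (counts per 1000000 counts of the library, with TMM scaling) with nontarget and 5.95, 6.58 and 5.66 with FLCN shRNA, and long-term libraries 9.92, 11.9 and 12.2 against 6.70, 6.31 and 7.97. The log2 fold change was −1.33 ± 0.179 (SE, n = 3 per group; edgeR quasi-likelihood test, adjusted p = 0.000112) short-term and −0.70 ± 0.178 (edgeR, adjusted p = 0.00611) long-term. The difference of 0.63 ± 0.254 between these effects did not pass (edgeR, adjusted p = 0.118). Of 13 proximal tubule and epithelial markers, 7 passed the filter. All 13 summed to 2619 to 2860 CPM in short-term nontarget and 4218 to 4829 in long-term knockdown libraries, the extremes of the 4 groups. The higher sum lay chiefly in CDH6, a kidney cadherin, with means of 67.7 and 1620 CPM in these groups. Long-term knockdown raised CDH6 and GGT1 (log2 fold changes of 2.73 and 0.85, edgeR, adjusted p = 1.8e-07 and 0.000603) and lowered PAX8 (−0.61, edgeR, adjusted p = 0.000204), 3 of the 7, where 29.5% of all genes passed. Short-term knockdown had raised all 3, with CDH6 at 1.01, GGT1 at 0.51 and PAX8 at 0.33 (edgeR, adjusted p = 0.00627, 0.0483 and 0.049), where 10.3% of all genes passed. Long culture of knockdown cells raised CDH6 (3.57, edgeR, adjusted p = 1.6e-08) and lowered KRT19 (−2.99, adjusted p = 3.07e-08) and PAX8 (−0.31, adjusted p = 0.0309), where 26.6% of all genes passed. LRP2 had 0 counts and ANPEP, AQP1 and SLC34A1 were near 0. The 3 leukocyte, 3 endothelial and 4 distal tubule and collecting duct markers summed to at most 1.06, 2.2 and 0.708 CPM in any library. Podocyte markers, almost all PODXL, ranged from 52.3 to 68.6 CPM in short-term nontarget libraries down to 7.16 to 16.5 in long-term knockdown, and the 3 fibroblast markers, mostly COL1A1, from 13.9 to 41.2 CPM over all libraries. PODXL and the fibroblast marker PDGFRB were lower in both comparisons, at −1.63 and −3.56 long-term (edgeR, adjusted p = 1.69e-05 and 1e-05) and −1.13 and −1.74 for long culture of knockdown cells (edgeR, adjusted p = 0.00088 and 0.025). The part of these markers in the sirtuin results was not tested. In all 4 groups pairs with replicate 3 had a higher chi-square per degree of freedom than the other pair. In short-term nontarget they had 4.35 and 4.44 against 2.15, and in short-term knockdown 11.8 and 12.9 against 3.53. In long-term nontarget they had 6.83 and 12.4 against 5.28, and in long-term knockdown 10.7 and 13.0 against 3.93. Sirtuin results below are therefore also given without replicate 3 where that changes them.

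Per kilobase of exon, SIRT1 was the most abundant sirtuin transcript in all 4 groups, at means of 8.21 to 10.5 CPM per kb. SIRT6 came second at 4.35 to 5.27 CPM per kb. Its libraries spread from 3.37 to 7.37 CPM per kb, and they overlapped with those of the next gene in every group but short-term knockdown. In short-term nontarget cells the order then ran SIRT2 at 3.31 ± 0.524 (SD, n = 3), SIRT5 at 2.65 ± 0.254, SIRT7 at 1.71 ± 0.0977, SIRT3 at 1.05 ± 0.306 and SIRT4 at 0.449 ± 0.0986 CPM per kb, with no overlap between neighbours in that run. Long-term knockdown cells had another order. SIRT7 ranked 3 at 2.93 ± 0.876, SIRT5 ranked 4 at 2.42 ± 0.152 and SIRT2 ranked 5 at 2.18 ± 0.0457 CPM per kb. SIRT7 overlapped there with SIRT6 above and SIRT5 below it, whereas SIRT5 and SIRT2 did not overlap. SIRT3 at 1.55 ± 0.188 CPM per kb and SIRT4 at 0.610 ± 0.322 stayed at the bottom. Dividing by the longest transcript in place of all exons left SIRT1, SIRT6 and SIRT4 first, second and last by their means, but SIRT1 and SIRT6 then overlapped in every group but short-term nontarget. It put SIRT2 behind SIRT3 in long-term knockdown cells, with overlapping libraries, and SIRT7 before SIRT5 in long-term nontarget cells.

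**Figure D1:**
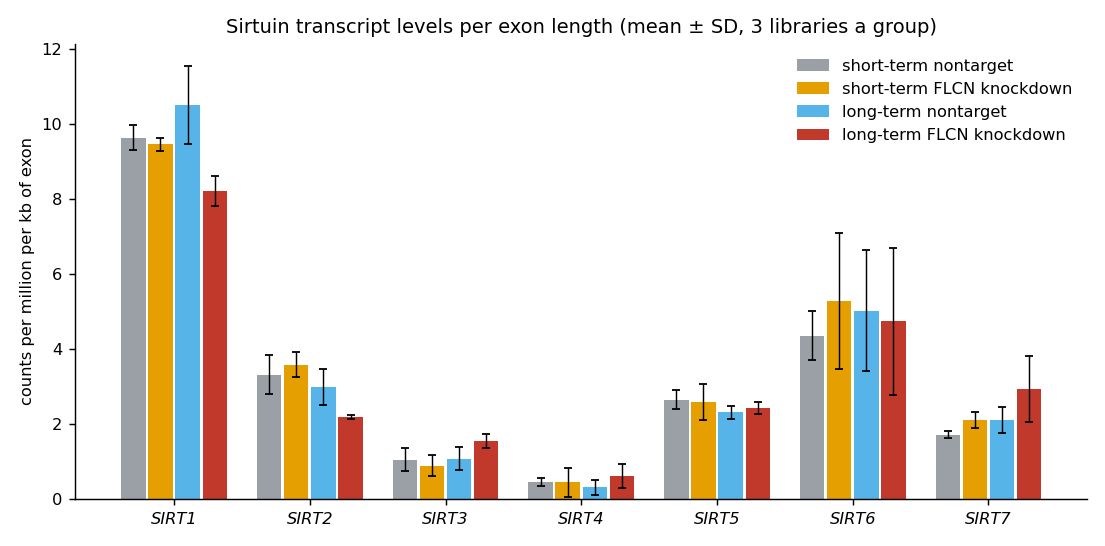
Transcript level of each sirtuin in CPM per kb of summed exon. Bars are means of 3 libraries in each of the 4 groups and error bars the SD. SIRT1 is highest throughout, at 8.21 to 10.5, and SIRT4 lowest, at 0.311 to 0.610.

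The sirtuins that passed the test did so in comparisons with long-term knockdown cells: SIRT1 and SIRT2 were lower there and SIRT3 was higher. After short-term knockdown 0 of the 6 tested sirtuins passed an adjusted p of 0.05 in edgeR, where 10.3% of all genes tested passed. An unadjusted p under 0.05 was reached by 0 of the 6. DESeq2 called none either. For long culture of nontarget cells 0 of 6 passed in edgeR and in DESeq2, against 7.55% of all genes in edgeR, and 0 had an unadjusted p under 0.05. With FLCN knocked down long-term, SIRT1 and SIRT2 were lower than in long-term nontarget cells, 2 of 6 tested, where 29.5% of all genes passed, a share near that of the sirtuins, and 15.8% of all genes were lower. Between long-term and short-term knockdown cells SIRT2 was lower and SIRT3 higher, again 2 of 6 against 26.6% of all genes (11.5% higher, 15.2% lower). With the replicate number as a block SIRT7 was called higher in both comparisons, which makes 3 of 6 in each, where 36.8% and 34.4% of all genes passed. The difference between the long- and short-term knockdown effects passed for 0 of 6 in edgeR and in DESeq2, against 13.4% of all genes in edgeR. Of the 6, 3 had an unadjusted p under 0.05, a looser threshold for which no share of all genes is given. The long-term knockdown effect and the long culture of knockdown cells share the long-term knockdown libraries. The paper already names SIRT1 from these libraries, so its direction here is no independent evidence. In RNA from whole cultures, fewer cells expressing a gene and less of its RNA per cell cannot be told apart.

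**Figure D2:**
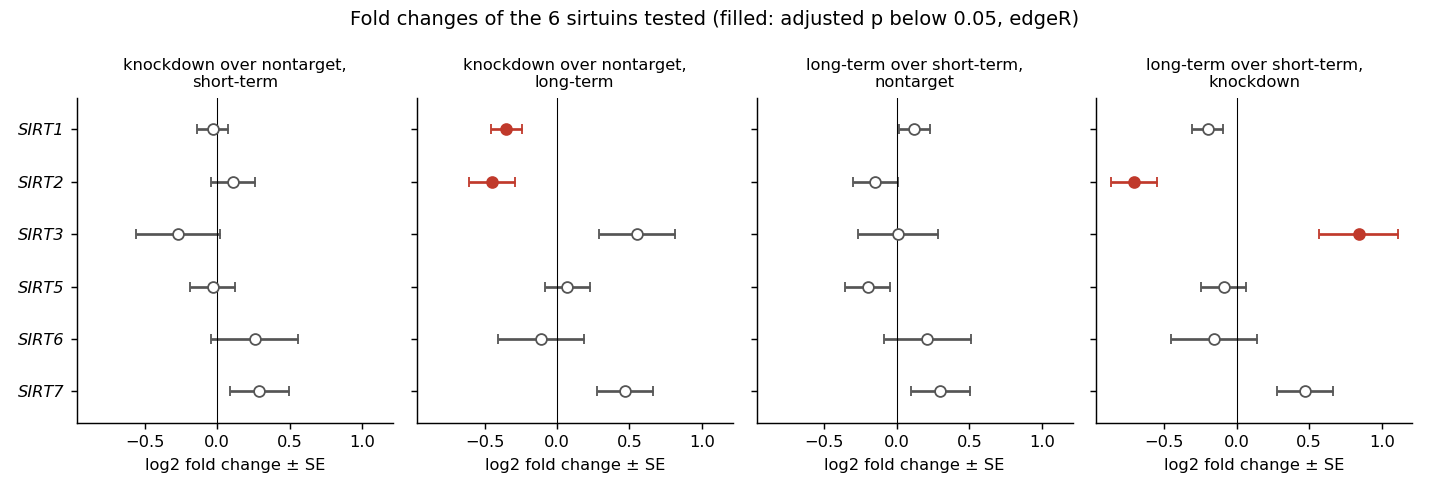
Log2 fold change ± SE of the 6 tested sirtuins in 4 comparisons of 3 against 3 libraries, with filled points at an adjusted p below 0.05 in edgeR. The filled points are SIRT1 (−0.35) and SIRT2 (−0.45) for long-term knockdown over nontarget, and SIRT2 (−0.71) and SIRT3 (0.84) for long-term over short-term knockdown cells.

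SIRT1, the nuclear deacetylase of FOXO3 and PGC-1alpha, had 42.4, 45.4 and 43.7 CPM in the short-term libraries with nontarget shRNA and 43.8, 43.1 and 42.1 in those with FLCN shRNA. Its long-term libraries had 53.1, 44.0 and 46.1 with nontarget and 39.1, 37.6 and 35.4 with FLCN shRNA. The long-term knockdown libraries lay below all 9 others, as they did for 10.7% of all genes tested, and the highest value was long-term nontarget replicate 1. Long-term, SIRT1 fell by 21.6% with knockdown, a log2 fold change of −0.35 ± 0.107 (SE; edgeR, adjusted p = 0.0186). Long-term against short-term knockdown cells, the log2 fold change of −0.20 ± 0.107 did not pass (edgeR, adjusted p = 0.184), although the libraries did not overlap. It was −0.03 ± 0.107 (edgeR, adjusted p = 0.926) for short-term knockdown and 0.12 ± 0.106 (edgeR, adjusted p = 0.603) for long culture of nontarget cells. The long-term call was lost without long-term nontarget replicate 1 (log2 fold change −0.27, edgeR, adjusted p = 0.0826) and without long-term knockdown replicate 3 (−0.31, adjusted p = 0.0559). It was also lost with no filter on low counts (−0.35, edgeR, adjusted p = 0.0697) and with only the groups compared in the fit (−0.35, adjusted p = 0.0611). The difference between the long- and short-term knockdown effects, −0.33 ± 0.151, did not pass (edgeR, adjusted p = 0.178).

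SIRT2, the cytoplasmic tubulin deacetylase, had 24.3, 18.5 and 18.9 CPM in the short-term libraries with nontarget shRNA and 23.2, 19.9 and 23.7 in those with FLCN shRNA. Its long-term libraries had 15.4, 19 and 21.3 with nontarget and 13.5, 13.4 and 13.9 with FLCN shRNA. Again the long-term knockdown libraries lay below all 9 others. Their coefficient of variation was 2.09% against 9.29% to 16.1% in the other groups. They held 290 counts in all, on which counting error alone is expected to exceed 2.09%, so this closeness is not read as a trait of the group. SIRT2 fell by 38.9% between short-term and long-term knockdown cells, a log2 fold change of −0.71 ± 0.159 (SE; edgeR, adjusted p = 0.00284), and this call held under all 15 alternatives tried, with adjusted p of 0.00361 to 0.0140 when single libraries were left out. Against long-term nontarget cells it fell by 27.0%, a log2 fold change of −0.45 ± 0.160 (edgeR, adjusted p = 0.0405). That second call was lost in 5 of 6 fits without 1 library, with log2 fold changes of −0.57 to −0.35 over the 6 and adjusted p up to 0.168 without long-term nontarget replicate 3, and also without replicate 3 of every group (−0.34, edgeR, adjusted p = 0.144), with no filter (−0.45, adjusted p = 0.0593) and with only the groups compared (−0.46, adjusted p = 0.066). Short-term knockdown gave 0.11 ± 0.153 (edgeR, adjusted p = 0.743) and long culture of nontarget cells −0.15 ± 0.155 (edgeR, adjusted p = 0.686). The knockdown effects long- and short-term differed by −0.56 ± 0.221, which did not pass (edgeR, adjusted p = 0.108). NFKBIB, the overlapping neighbour, had a log2 fold change of 0.05 (edgeR, adjusted p = 0.881) between short- and long-term knockdown cells and of −0.36 (edgeR, adjusted p = 0.155) against long-term nontarget cells. The part of shared reads in the SIRT2 counts was not tested.

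SIRT3, the main mitochondrial protein deacetylase, had 6.15, 3.64 and 6.60 CPM in the short-term libraries with nontarget shRNA and 3.42, 4.24 and 6.19 in those with FLCN shRNA. Its long-term libraries had 3.75, 6.66 and 6.21 with nontarget and 8.44, 8.80 and 6.95 with FLCN shRNA. These rest on 24 to 73 reads a library. The long-term knockdown libraries lay above all 9 others, as for 8.75% of genes tested, but the gap between 6.95 and 6.66 CPM is small. SIRT3 rose 1.79-fold between short- and long-term knockdown cells, a log2 fold change of 0.84 ± 0.273 (SE; edgeR, adjusted p = 0.0303). This call was lost in 4 of 6 fits without 1 library, each time replicate 1 or 2 of either group, with adjusted p up to 0.141 without short-term knockdown replicate 1. Against long-term nontarget cells the log2 fold change was 0.55 ± 0.263 and did not pass (edgeR, adjusted p = 0.129), and it passed without replicate 3 of every group (0.75, edgeR, adjusted p = 0.0379) and with the replicate block in a fit of only these groups (0.56, edgeR, adjusted p = 0.0274). Without 1 library it was not called, at 0.33 to 0.68, the lowest being without long-term nontarget replicate 1 (edgeR, adjusted p = 0.394). Short-term knockdown gave −0.27 ± 0.287 (edgeR, adjusted p = 0.638), long culture of nontarget cells 0.01 ± 0.277 (edgeR, adjusted p = 0.991), and the difference between the knockdown effects was 0.83 ± 0.389 (edgeR, adjusted p = 0.186). PSMD13, whose exons SIRT3 shares in part, had a log2 fold change of 0.12 (edgeR, adjusted p = 0.364) between short- and long-term knockdown cells and 0.20 (edgeR, adjusted p = 0.128) against long-term nontarget cells. The part of shared reads in the SIRT3 counts was not tested.

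SIRT7, the nucleolar member linked to ribosomal RNA transcription, had 11.1, 9.87 and 10.5 CPM in the short-term libraries with nontarget shRNA and 12.1, 12.1 and 14.5 in those with FLCN shRNA. Its long-term libraries had 10.6, 13.5 and 14.7 with nontarget and 15.4, 14.5 and 24.3 with FLCN shRNA. The last value, replicate 3, is far above the other two of its group, and the group overlaps with long-term nontarget. The log2 fold change was 0.47 ± 0.192 long-term (edgeR, adjusted p = 0.0778) and 0.47 ± 0.193 between long- and short-term knockdown cells (edgeR, adjusted p = 0.0806), neither of which passed. In these comparisons same-numbered libraries deviated together, as did some pairs of replicates 1 and 2 with different numbers. With the replicate number as a block both passed, at 0.46 (edgeR, adjusted p = 0.0247) and 0.46 (edgeR, adjusted p = 0.0305). Without long-term knockdown replicate 3 the values were 0.21 (edgeR, adjusted p = 0.390) and 0.22 (edgeR, adjusted p = 0.382), while without long-term knockdown replicate 2 the long-term value passed (0.59, edgeR, adjusted p = 0.0468). Short-term knockdown gave 0.29 ± 0.203 (edgeR, adjusted p = 0.433) with libraries that did not overlap, and long culture of nontarget cells 0.30 ± 0.202 (edgeR, adjusted p = 0.476). The difference between the knockdown effects was 0.17 ± 0.280 (edgeR, adjusted p = 0.754). MAFG, which shares exon bases with SIRT7, had a log2 fold change of 0.25 (edgeR, adjusted p = 0.208) long-term and 0.41 (edgeR, adjusted p = 0.0414) between short- and long-term knockdown cells. The part of shared reads in the SIRT7 counts was not tested.

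SIRT6, the chromatin-bound deacetylase, had 12, 14.0 and 10.4 CPM in the short-term libraries with nontarget shRNA and 11.5, 12 and 20.5 in those with FLCN shRNA. Its long-term libraries had 9.38, 14.2 and 18.4 with nontarget and 9.59, 10.6 and 19.5 with FLCN shRNA. In each of the last 3 groups replicate 3 was the highest, and these 3 libraries were the highest of all 12, while the groups overlapped. The 4 log2 fold changes ran from −0.16 to 0.26 with SEs of 0.296 to 0.300, and none passed (edgeR, adjusted p of 0.678 to 0.826). Without replicate 3 of every group SIRT6 was −0.14 short-term and −0.15 for long culture of nontarget cells, where it had been 0.26 and 0.21. The long-term value and that for long culture of knockdown cells kept their direction, at −0.21 and −0.23.

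SIRT5, which removes succinyl and malonyl groups in mitochondria, had libraries from 13.7 to 20 CPM, with a median of 15.8, and all 4 groups overlapped. Its log2 fold changes were −0.20 to 0.07 with SEs of 0.154 or 0.155, and none passed (edgeR, adjusted p of 0.559 to 0.935). SIRT4, a mitochondrial member that acts on glutamate dehydrogenase, was barely detected and not tested, with 47 counts in all. It had 3, 4 and 4 counts in the short-term libraries with nontarget shRNA and 6, 6 and 0 in those with FLCN shRNA. Its long-term libraries had 1, 4 and 3 with nontarget and 8, 2 and 6 with FLCN shRNA. The groups held 8 to 16 counts, or 0.377 to 0.734 CPM, and their libraries overlapped. With no filter on low counts SIRT4 was fitted too, and it was not called in any comparison.

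**Figure D3:**
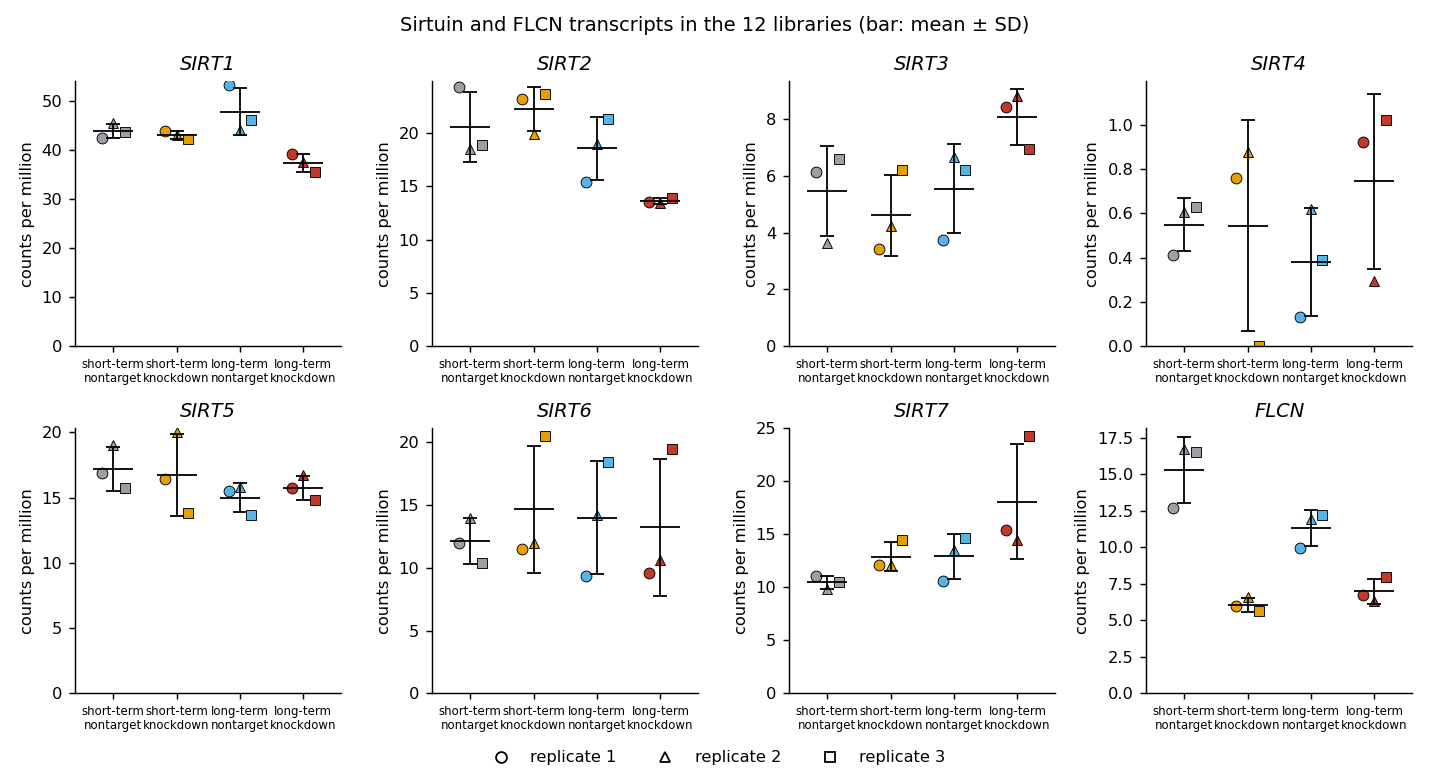
CPM (linear axis from 0) of the 7 sirtuins and FLCN in each library; marker shape is the replicate number, and the bar with whiskers is the mean ± SD of 3. SIRT1 and SIRT2 are lowest in the 3 long-term knockdown libraries and SIRT3 highest, while SIRT6 is highest in replicate 3 of 3 groups.

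As a family the members did not move together. The median log2 fold change of the 6 tested was 0.04 short-term, −0.02 long-term, 0.07 for long culture of nontarget cells and −0.13 for long culture of knockdown cells, beside −0.00 to 0.01 for all genes tested. Over the 12 libraries the Pearson correlation of log2 CPM between members ran from −0.734 for SIRT1 with SIRT7 to 0.555 for SIRT3 with SIRT7, a description of 12 libraries in 4 groups. The genes whose levels followed each member most closely, among at least 9368 genes with a mean of 10 CPM or more, were NDFIP2 (r = 0.958) and IL6ST (0.952) for SIRT1, and FUOM (0.957) and STAT6 (0.936) for SIRT2. They were NXF1 (0.842) and CAMKK2 (0.838) for SIRT3 and CCAR1 (0.897) and RPL36AL (0.896) for SIRT5. For SIRT6 they were UBALD1 (0.958) and SCAF1 (0.954), and for SIRT7 GPT2 (0.968) and EGFL7 (0.963). SIRT3, the member with the fewest reads among those tested, had the weakest of these correlations.

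Many of the genes around SIRT7 were higher in long-term knockdown cells. SIRT7 lies near the end of the long arm of chromosome 17, and its 40 nearest tested genes, all within 409085 bases, had a median log2 fold change of 0.42 long-term, with 17 called higher and 2 lower, where 13.7% of all genes were called higher. Between long- and short-term knockdown cells the median was 0.54, with 26 of the 40 called higher and 1 lower, where 11.5% of all genes were. Both are close to the 0.47 of SIRT7 itself in the same fit, whose call is open to the choices given above. Without long-term knockdown replicate 3 SIRT7 was at 0.21 and 0.22. The neighbours are given only for all 12 libraries, so how far their medians rest on that library was not tested. In nontarget cells the median was 0.22 for long culture, and for short-term knockdown 0.08. The 40 genes nearest SIRT3 had medians of −0.16 long-term and −0.13 for long culture of knockdown cells, where SIRT3 had 0.55 and 0.84. Those nearest SIRT2 had −0.13 and −0.00, where SIRT2 had −0.45 and −0.71. Those nearest SIRT1 had −0.07 long-term, where SIRT1 had −0.35, but −0.29 for long culture of knockdown cells, beyond its own −0.20. Those nearest SIRT5 had −0.01 and 0.01, where SIRT5 had 0.07 and −0.09, and those nearest SIRT6 had −0.10 and −0.05, where SIRT6 had −0.11 and −0.16. A change in chromosome copies was not tested.

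**Figure D4:**
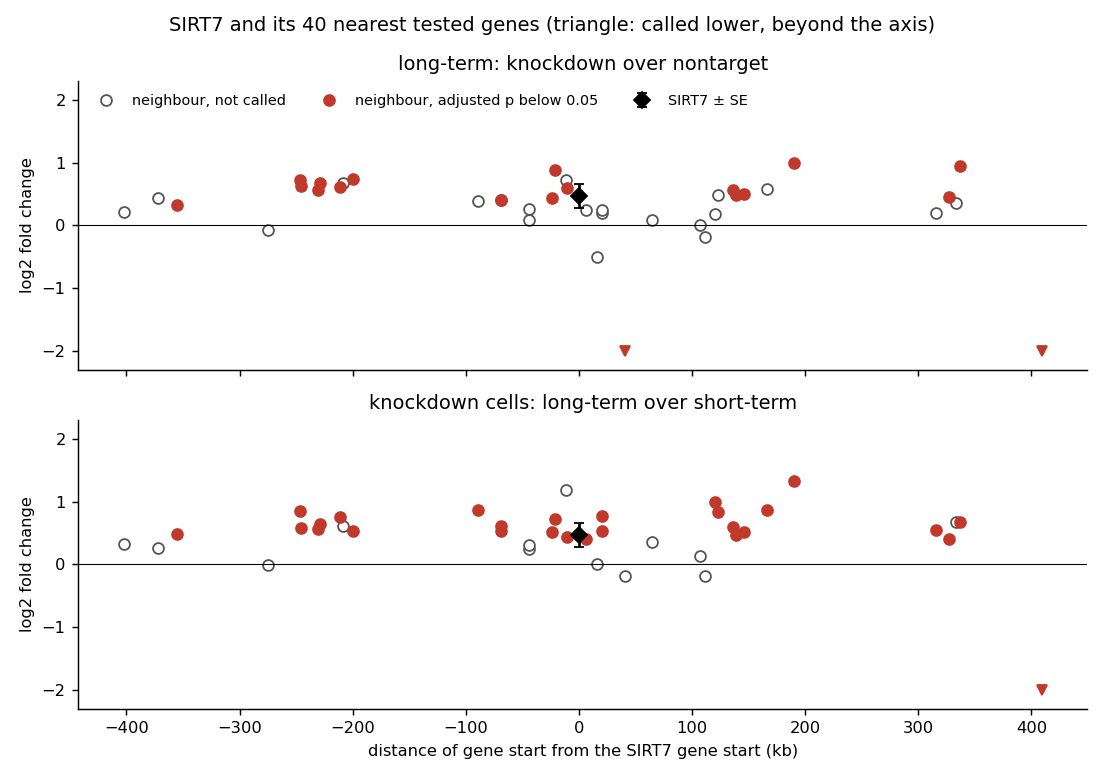
Log2 fold change of the 40 tested genes nearest SIRT7 against the distance of their start from the SIRT7 start in kb, long-term (top) and between long- and short-term knockdown cells (bottom); filled points passed an adjusted p of 0.05, triangles lie beyond the axis. Most neighbours lie above 0, at medians of 0.42 and 0.54, as does SIRT7 at 0.47.

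Of 20 listed genes that supply NAD+, 15 were tested, and long-term knockdown raised 4 and lowered 2, where 13.7% of all genes were called higher and 15.8% lower. The list's median log2 fold change was 0.01. NAPRT, which starts NAD+ synthesis from nicotinic acid, rose from 3.98 ± 0.636 to 27.8 ± 7.99 CPM (SD, n = 3), a log2 fold change of 2.78 ± 0.229 (SE; edgeR, adjusted p = 9.02e-08). NNMT, which methylates nicotinamide and so removes it from recycling, rose from 286 ± 18.7 to 622 ± 41.2 CPM (a log2 change of 1.12, edgeR, adjusted p = 2.79e-07). NMNAT3, the mitochondrial member of the enzymes that make NAD+ from its mononucleotide, had 149 counts over the long-term nontarget and 122 over the short-term knockdown libraries but 1 over the long-term knockdown ones. Its ratio of counts, long-term knockdown to nontarget, was 0.00654 with an exact 95% interval of 0.000164 to 0.0370, which covers counting error only (edgeR, adjusted p = 8.6e-08). NAMPT, the rate-limiting enzyme of nicotinamide recycling, did not pass long-term (log2 fold change 0.07, edgeR, adjusted p = 0.683). Short-term knockdown raised NAPRT alone of the 15 (0.85, edgeR, adjusted p = 0.0115), where 10.3% of all genes passed. Long culture lowered NAPRT by 1.54 on the log2 scale in nontarget cells (edgeR, adjusted p = 0.00059), together with NNMT (−0.55), PNP (−0.46) and NMRK2, 4 of 15 in all, against 7.55% of all genes. NAPRT did not pass for long culture of knockdown cells (0.39, edgeR, adjusted p = 0.148). In knockdown cells long culture raised 2 and lowered 4 of 15, against 11.5% and 15.2% of all genes, and NMNAT3, NMRK2 and KYNU were among the lower ones. NMRK2 had 3 counts over the long-term knockdown libraries against 66 over the short-term ones, a ratio of 0.0435 (95% interval 0.00875 to 0.133). KYNU, with 1 count against 45, passed the filter on low counts through the short-term knockdown libraries alone, so its call is no support.

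Among the other enzymes that consume NAD+, 0 rose in the 4 comparisons and up to 6 fell. Of 10 tested of 12, long-term knockdown lowered PARP10 (log2 fold change −0.85, edgeR, adjusted p = 0.00549) and PARP14 (−0.83, edgeR, adjusted p = 0.00895), mono-ADP-ribosyltransferases, with a list median of −0.29, where 15.8% of all genes were lower. Long culture of knockdown cells lowered 6 of 10, against 15.2% of all genes. The list's median was −0.50, with PARP2, a DNA-damage enzyme, at −0.62 (edgeR, adjusted p = 0.00135), TNKS2, a tankyrase, at −0.45 (edgeR, adjusted p = 0.00594) and PARP9 at −0.76 (edgeR, adjusted p = 0.00672). Long culture of nontarget cells lowered PARP2 (−0.51, edgeR, adjusted p = 0.0168) and PARP9 (−0.67, edgeR, adjusted p = 0.0322), 2 of 10, where 7.55% of all genes passed. Short-term knockdown called 0 of 10 in edgeR and in DESeq2, where 10.3% of all genes passed in edgeR. At the looser threshold of an unadjusted p under 0.05 there were 3. CD38, the ectoenzyme that degrades NAD+, had 0 counts.

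The 7 listed regulators of sirtuins, among them the SIRT1 inhibitor CCAR2 and its activator RPS19BP1, were all tested, and 0 passed in any of the 4 comparisons in edgeR or DESeq2. Of all genes, 10.3% passed in edgeR for short-term and 29.5% for long-term knockdown, and 7.55% and 26.6% for long culture of nontarget and knockdown cells. In the same order 1, 1, 0 and 1 regulators had an unadjusted p under 0.05. In long-term cells CCAR2 had 112 ± 7.69 CPM with nontarget and 111 ± 0.700 with FLCN shRNA (SD, n = 3). HIC1, a repressor of SIRT1 transcription, had a log2 fold change of 0.50 ± 0.286 (SE) long-term and did not pass (edgeR, adjusted p = 0.210).

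Of 17 nuclear and cytosolic substrates, chiefly of SIRT1, 16 were tested, and long-term knockdown raised 5 and lowered 2, against 13.7% and 15.8% of all genes. The list's median log2 fold change was 0.08. PPARGC1A, the gene for the coactivator PGC-1alpha, rose from 21.7 ± 3.96 to 59.7 ± 9.47 CPM (SD, n = 3; a log2 change of 1.46, edgeR, adjusted p = 3.33e-06) and had risen short-term too (0.73, edgeR, adjusted p = 0.00852). NR1H3, the liver X receptor alpha, rose from 3.05 ± 0.868 to 8.55 ± 0.613 CPM (1.47, edgeR, adjusted p = 0.000151). FOXO3, a stress-response transcription factor, was lower both short-term (−0.82, edgeR, adjusted p = 0.000332) and long-term (−0.94, edgeR, adjusted p = 1.83e-05). Short-term, 1 of 16 was higher and 2 lower, where 10.3% of all genes passed, the other lower one being ACSS2 (−0.54, edgeR, adjusted p = 0.019), the cytosolic acetyl-CoA synthetase. Long culture of nontarget cells gave NR1H3 a log2 fold change of −1.08 (edgeR, adjusted p = 0.0109), the 1 of 16 that passed, against 7.55% of all genes. NR1H3 did not pass for long culture of knockdown cells (−0.08, edgeR, adjusted p = 0.815). Long culture of knockdown cells raised 3 and lowered 1, where 11.5% and 15.2% of all genes did so, led by SREBF1, a regulator of lipid synthesis (1.40, edgeR, adjusted p = 3.63e-06), the DNA repair gene NBN (0.74, edgeR, adjusted p = 0.000379) and HIF1A, a transcription factor of the hypoxia response (−0.40, edgeR, adjusted p = 0.00441). The study names some of these genes from the same libraries, so the list's direction is no independent evidence.

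Of 19 mitochondrial substrates, chiefly of SIRT3, 16 were tested, and long-term knockdown raised 8 and lowered 4, against 13.7% and 15.8% of all genes. The list's median log2 fold change was 0.29, beside 0.00 for all genes. HADHA, a subunit of the trifunctional protein of fatty acid oxidation, rose from 152 ± 10.5 to 278 ± 15.4 CPM (SD, n = 3; 0.87, edgeR, adjusted p = 9.15e-07) and ACADVL, the very-long-chain acyl-CoA dehydrogenase, from 173 ± 14.9 to 318 ± 44.6 CPM (0.87, edgeR, adjusted p = 2.08e-05). PPIF, the cyclophilin of the permeability pore, fell from 336 ± 12.9 to 154 ± 16.1 CPM (−1.13, edgeR, adjusted p = 3.12e-07). Short-term, 3 were higher and 1 lower, where 10.3% of all genes passed. HADHA was at 0.56 (edgeR, adjusted p = 0.000434), the succinate dehydrogenase subunit SDHA at 0.50 (edgeR, adjusted p = 0.00147) and PPIF at −0.50 (edgeR, adjusted p = 0.00386). Long culture raised SDHA in nontarget cells (0.47, edgeR, adjusted p = 0.00326), 1 of 16, against 7.55% of all genes. In knockdown cells it raised 6 and lowered 4, against 11.5% and 15.2%, with ACADVL at 1.09 (edgeR, adjusted p = 2.32e-06), SDHA at 0.58 (edgeR, adjusted p = 0.000112) and ACSS1, a mitochondrial acetyl-CoA synthetase known as a SIRT3 target, at −1.46 (edgeR, adjusted p = 3.67e-05).

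The zinc-dependent deacetylases, the other class of lysine deacetylases, use no NAD+ and served as a comparison. Of 11, 10 were tested, and long-term knockdown lowered HDAC9 (−1.45, edgeR, adjusted p = 5.2e-05) and HDAC11 (−0.55, edgeR, adjusted p = 0.034), 2 of 10, where 29.5% of all genes passed. HDAC9, a class IIa member, was also lower short-term (−0.90, edgeR, adjusted p = 0.00402) and with long culture of nontarget (−0.79, edgeR, adjusted p = 0.0124) and of knockdown cells (−1.33, edgeR, adjusted p = 0.000169), where HDAC8 was higher (0.42, edgeR, adjusted p = 0.0311). No difference between the 2 classes was tested.

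**Figure D5:**
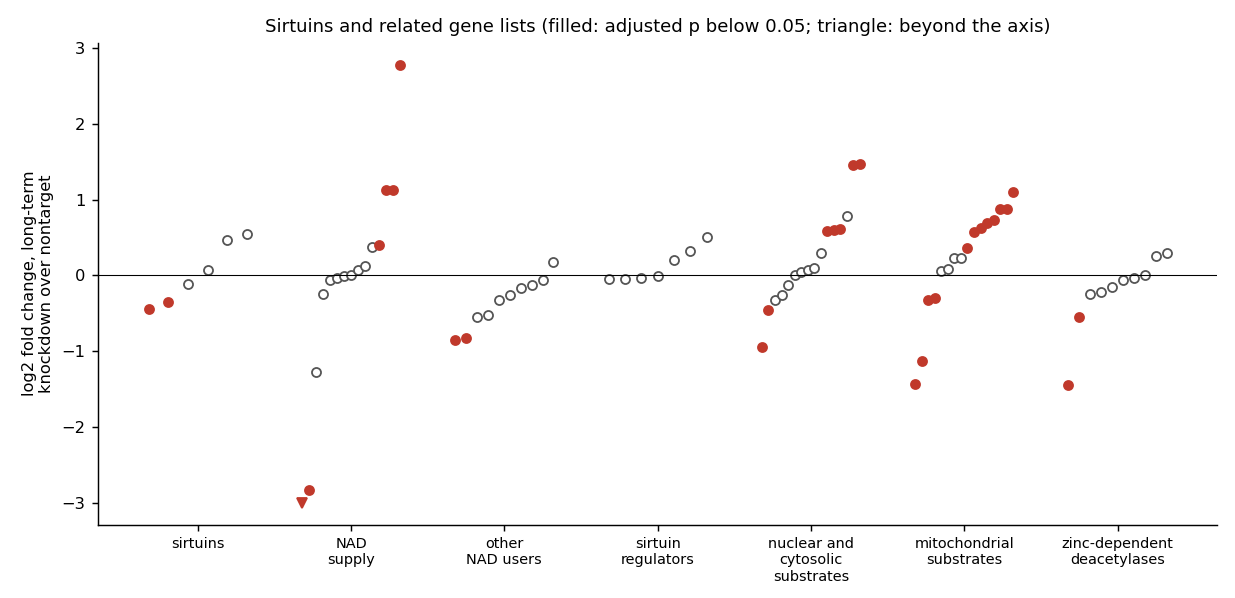
Log2 fold change of each tested gene, long-term knockdown over long-term nontarget, for the sirtuins and 6 related lists; filled points passed an adjusted p of 0.05 and the triangle (NMNAT3) lies beyond the axis. The 6 sirtuins span −0.45 to 0.55, within the range of every substrate and NAD+ supply list.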

How the data were processed

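RNA of 12 HK2 libraries was sequenced after TruSeq preparation. Per the labels and the methods, the authors mapped reads with STAR to GRCh38, counted them with featureCounts and tested with DESeq2. Versions, annotation release and strand setting are not given in the sources used here. The deposited values are counts of reads per gene, in a table and in files per library that differed in 0 values. The deposited normalized values have the unit score and lay within 1 of the count times a library factor for 99.9% of values. They were not used further.

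Of the gene IDs, 55661 carried the version of GENCODE release 29 (GRCh38), 2364 another version, and 263, holding 0.0126% of counts, had no match there. In R 4.3.3 with edgeR 4.0.16, filterByExpr by group kept 13959 genes and 99.8% of counts. A robust quasi-likelihood fit with TMM factors held all 12 libraries with a term per group, and the biological coefficient of variation was 12%. P-values are two-sided, adjusted by Benjamini-Hochberg over all genes tested, with a threshold of 0.05. SEs were derived from the F statistic of each log2 fold change. Log2 CPM for correlations used a prior count of 2. Depth limits SIRT3 and SIRT4 most.

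The sirtuins, their lists and the tests were chosen with earlier results of these data known. Named are the sirtuins, FLCN, in each list and comparison the 3 genes of smallest p among those passing, and per sirtuin the 2 genes of highest correlation. NAMPT, CCAR2, RPS19BP1, HIC1, CD38, PSMD13, NFKBIB, MAFG, the cell type markers and, for the difference between the knockdown effects, PPIF, IDH2, OPA1, SOD2, NMRK2 and PPARGC1A were named after their values were seen. One gene of the list of nuclear and cytosolic substrates is not reported here and was left out of its counts.

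Replicate numbers are shared by the groups. Same-numbered libraries deviated from their group means together in all 3 pairs in long-term knockdown against nontarget (correlations 0.284, 0.123 and 0.458) and in long- against short-term knockdown cells (0.223, 0.292 and 0.455), but not in comparisons with short-term nontarget (−0.0340 to 0.111). In the first 2 comparisons replicates 1 and 2 of different groups had 0.231 and −0.0125, and 0.134 and 0.120. Replicate 3 with replicate 1 or 2 had −0.397 to −0.0886. Whether the block follows matched numbers or replicate 3 alone was not tested. Alternatives were RLE factors, DESeq2 1.42.0, no filter, a filter at 10 CPM, the per-library files, only the groups compared, the replicate block, and leaving out each library.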

Additional observations from a re-analysis of the deposited data

Results flagged for a closer look

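No sirtuin had a knockdown effect that differed between long- and short-term cells at an adjusted p below 0.05 (edgeR interaction term), where 13.4% of all genes passed. At the looser threshold of an unadjusted p under 0.05 there were 3 of the 6 tested, SIRT1, SIRT2 and SIRT3. In the related lists 4 of 15 genes that supply NAD+, 4 of 16 nuclear and cytosolic substrates and 7 of 16 mitochondrial substrates passed, each picked out by that interaction test. Of the other NAD+ users, the sirtuin regulators and the zinc-dependent deacetylases 0 of 10, 0 of 7 and 0 of 10 passed in edgeR, with 2, 1 and 2 at an unadjusted p under 0.05, and DESeq2 called 1, 0 and 0. Values are the log2 fold change of the long-term knockdown minus that of the short-term one.

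Of the genes that supply NAD+, NAPRT had 1.93 ± 0.311 (SE; edgeR, adjusted p = 0.000339) and NNMT 0.86 ± 0.143 (edgeR, adjusted p = 0.000424). NMNAT3 had −6.69 and NMRK2 −3.06, values that depend on the prior count because the long-term knockdown libraries held 1 and 3 counts. Of the mitochondrial substrates, ACSS1 had −1.85 ± 0.274 (edgeR, adjusted p = 0.000139), with 15.3 ± 1.94 CPM in short-term and 5.64 ± 1.45 in long-term knockdown libraries (SD, n = 3). ACADVL had 1.00 ± 0.166 (edgeR, adjusted p = 0.000466), MCCC1, a subunit of the leucine-degrading methylcrotonyl-CoA carboxylase, 1.00 ± 0.172 (edgeR, adjusted p = 0.000569), and PPIF −0.63. The other mitochondrial substrates that passed were IDH2 at 0.71 (edgeR, adjusted p = 0.00351), OPA1 at 0.57 (edgeR, adjusted p = 0.0309) and SOD2 at −0.44 (edgeR, adjusted p = 0.0482). Of the nuclear and cytosolic substrates, NBN had 0.92 ± 0.183 (edgeR, adjusted p = 0.0021), SREBF1 0.97 ± 0.221 (edgeR, adjusted p = 0.00631), HIF1A −0.45 ± 0.135 (edgeR, adjusted p = 0.0339) and PPARGC1A 0.74. The HIF1A call was lost under 9 of 19 alternatives and that of PPARGC1A under 11 of 19.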

How the results depend on the processing

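Library depth of 5825779 to 8991051 counts limits SIRT3 and SIRT4, and 3 libraries a group limit all calls. The long-term count of sirtuins called went from 2 to 0 with no filter and with only the groups compared, as SIRT1 (−0.35, edgeR, adjusted p = 0.0697 and −0.35, adjusted p = 0.0611) and SIRT2 (−0.45, adjusted p = 0.0593 and −0.46, adjusted p = 0.066) lost their calls. The cause was not tested. For long culture of knockdown cells it went from 2 to 1 with a filter at 10 CPM, which leaves SIRT3 untested. With the replicate block SIRT7 was called long-term (0.46, edgeR, adjusted p = 0.0247) and for long culture of knockdown cells (0.46, adjusted p = 0.0305), and in a block of only the groups compared (0.47, adjusted p = 0.00795 and 0.44, adjusted p = 0.0128), where SIRT3 was called long-term too (0.56, adjusted p = 0.0274) and 4 of 6 sirtuins in all. For long culture of nontarget cells SIRT3 was −0.00 in both blocks. The block changed no other sirtuin call.

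The block of only the groups compared and the fit without replicate 3 of every group were chosen after seeing the data. The latter gave SIRT2 −0.34 (edgeR, adjusted p = 0.144) and SIRT3 0.75 (adjusted p = 0.0379) long-term, SIRT5 0.02 and SIRT6 −0.14 short-term, and SIRT6 −0.15 for long culture of nontarget cells.

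Leaving out 1 library at a time, 0 to 2 sirtuins were called long-term, 1 to 2 for long culture of knockdown cells and 0 to 1 for the difference of the knockdown effects, the 1 being SIRT2 without long-term nontarget replicate 1. The log2 fold changes then ran from 0.04 to 0.25 for SIRT2, −0.52 to −0.08 for SIRT3, −0.18 to 0.08 for SIRT5 and −0.05 to 0.41 for SIRT6 short-term. Long-term they ran from −0.42 to −0.27 for SIRT1, −0.57 to −0.35 for SIRT2, 0.33 to 0.68 for SIRT3, −0.00 to 0.11 for SIRT5, −0.48 to 0.14 for SIRT6 and 0.21 to 0.59 for SIRT7. For long culture they ran from −0.27 to −0.01 for SIRT2, −0.21 to 0.23 for SIRT3 and −0.05 to 0.43 for SIRT6 in nontarget cells, and from 0.65 to 1.09 for SIRT3, −0.21 to 0.05 for SIRT5 and −0.52 to 0.14 for SIRT6 in knockdown cells. The difference of the knockdown effects ran from −0.70 to −0.46 for SIRT2, −0.01 to 0.25 for SIRT5 and −0.08 to 0.29 for SIRT7.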
